A study of Mus musculus with 75 samples.

Results

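The 10 genes described here encode enzymes of glycolysis and the lactate dehydrogenase that follows it, and the rule that lists them names genes and uses no measured value. They are Hk1 (ENSMUSG00000037012), Hk2 (ENSMUSG00000000628), Gpi1 (ENSMUSG00000036427), Pfkl (ENSMUSG00000020277), Aldoa (ENSMUSG00000030695), Tpi1 (ENSMUSG00000023456), Gapdh (ENSMUSG00000057666), Pgk1 (ENSMUSG00000062070), Pkm (ENSMUSG00000032294) and Ldha (ENSMUSG00000063229), out of 53465 gene identifiers in the tables. All 10 passed the filter on low counts in both assays. CD4+CD25- effector T cells, taken from the spleens and lymph nodes of 9 mice, were cultured and sequenced as gene counts, and the title of the study names the control of translation by regulatory T cells (Tregs) as its question. In RiboTag, 5 mice carried the tagged ribosomal protein allele Rpl22tm1.1Psam together with the Tg(Cd4-cre)1Cwi transgene, so that cells with a history of Cd4 promoter activity have ribosomes that can be precipitated through the tag. Their groups were Treg (anti-CD3/CD28 beads with Tregs), Stim (the same beads alone) and Rest (kept in IL7 without beads), each with RNA precipitated with the ribosomes (IP) and whole RNA (Input), 5 libraries a group. In SPEED, which separated the lysate on sucrose, 4 mice of the strain B6.SJL-PtprcaPepcb/BoyJ gave the groups HHT (beads, with HHT added for the last 10 min), Treg, Stim and Untreated, each as polysomal (Pol), subpolysomal (SubPol) and Input RNA. SPEED groups held 4 libraries each, except HHT with 3 Pol, 3 SubPol and 2 Input libraries. The Tregs were sorted as CD4+YFP+ cells, and control wells were matched for cell density with added effector cells, which in some cases came from Foxp3YFP-Cre mice. The sources used here do not give ages, what HHT stands for, or whether Tregs were taken out before lysis. RNA of the added Tregs may therefore be part of the Input libraries of the Treg groups. It may also be part of the Pol and SubPol libraries of the SPEED Treg group, which were separated without a tag. RNA of the effector cells added to control wells may likewise be part of the control libraries. The labelled cell type could not be set against marker genes, because the tables hold identifiers and no gene names.

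Glycolysis splits glucose into pyruvate in the cytosol and yields ATP without oxygen. A naive or resting T cell runs it slowly and burns most of its fuel in mitochondria, whereas a T cell stimulated through its antigen receptor and CD28 takes up far more glucose and turns much of it into lactate even when oxygen is present. Hk1 and Hk2 trap glucose as its phosphate, Gpi1 and Pfkl (the liver form of phosphofructokinase, which catalyses the committed step) prepare the sugar, Aldoa and Tpi1 cut it and interconvert the trioses, Gapdh, Pgk1 and Pkm carry out the steps that harvest energy, and Ldha converts pyruvate to lactate.

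The genes lie on chromosomes 6, 7, 9, 10 and X of GRCm38.p6 in the RefSeq annotation, and all are protein coding. Hk2 is at chr6:82725025-82774454, Tpi1 at chr6:124810586-124814158 and Gapdh at chr6:125161852-125166467. Gpi1 is at chr7:34201327-34230336, Ldha at chr7:46842274-46855627 and Aldoa at chr7:126795234-126800994. Pkm is at chr9:59656576-59679372, Hk1 at chr10:62268855-62379920, Pfkl at chr10:77986947-78009807 and Pgk1 at chrX:106187100-106203699. RefSeq lists pseudogenes named after Aldoa, Gapdh, Pgk1 and Ldha, so reads of these 4 genes can match near-identical copies and their levels are uncertain. Gapdh had a mean of 49.9 counts a library in RiboTag and 71.6 in SPEED, and Pgk1 had 46.1 and 61.5.

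The 250 bases upstream of the annotated starts were searched for 2 short motifs on both strands, because the transcription factors HIF-1 and MYC, both known to act on glycolytic genes in stimulated T cells, recognise ACGTG and CACGTG. The longer motif contains the shorter one on each strand. Of the 10 genes, 5 had ACGTG in at least 1 of their windows (Hk2, Aldoa, Pgk1, Pkm and Ldha), and of all 27025 genes with a window 18.5% had it. Ldha was the only one of the 10 with CACGTG, which 6.86% of all genes had. Hk1, Gpi1, Pfkl, Tpi1 and Gapdh had neither motif in their windows. A match is a run of letters and not a measured binding site. The windows of Hk2, Tpi1, Pgk1 and the first window of Ldha are shown from RefSeq on GRCm38.p6, 5′ to 3′ on the gene's strand, with ACGTG or its complement CACGT in capitals. They were chosen because Hk2 and Tpi1 had the highest rises with stimulation among the 10, Pgk1 holds the motif in both orientations, and Ldha holds the longer motif. The windows are chr6:82774455-82774704 (minus strand) for Hk2, chr6:124814159-124814408 (minus) for Tpi1, chrX:106186850-106187099 (plus) for Pgk1 and chr7:46845554-46845803 (plus) for Ldha.
Hk2: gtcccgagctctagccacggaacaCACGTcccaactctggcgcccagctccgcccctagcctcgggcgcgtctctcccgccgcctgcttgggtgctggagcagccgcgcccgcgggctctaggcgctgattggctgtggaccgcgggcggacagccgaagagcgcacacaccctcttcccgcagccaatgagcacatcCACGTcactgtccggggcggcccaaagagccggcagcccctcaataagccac
Tpi1: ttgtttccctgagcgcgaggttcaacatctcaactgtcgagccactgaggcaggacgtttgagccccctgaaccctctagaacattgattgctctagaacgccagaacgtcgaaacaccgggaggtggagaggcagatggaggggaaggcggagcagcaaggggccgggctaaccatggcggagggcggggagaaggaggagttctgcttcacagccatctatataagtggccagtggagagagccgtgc
Pgk1: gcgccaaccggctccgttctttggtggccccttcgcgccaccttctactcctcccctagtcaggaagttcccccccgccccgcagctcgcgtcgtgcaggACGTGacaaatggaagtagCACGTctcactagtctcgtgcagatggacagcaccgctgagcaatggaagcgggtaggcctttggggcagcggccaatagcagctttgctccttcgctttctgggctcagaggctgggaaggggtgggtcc
Ldha: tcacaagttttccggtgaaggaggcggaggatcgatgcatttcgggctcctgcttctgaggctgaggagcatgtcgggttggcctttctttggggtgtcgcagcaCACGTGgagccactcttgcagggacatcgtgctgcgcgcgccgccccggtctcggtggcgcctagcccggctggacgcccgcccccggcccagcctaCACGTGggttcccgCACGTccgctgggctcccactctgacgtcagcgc
In these windows the capitals stand at 2 places for Hk2, at 0 for Tpi1, at 2 for Pgk1 and at 3 for Ldha, of which 2 are the longer motif.

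Library totals ran from 1658481 to 2824875 counts in RiboTag and from 1566501 to 4621104 counts in SPEED, and a trait of these counts bears on every level below. No gene held more than 0.179% of a library, and no gene exceeded 5481 counts. The counts of 7 of the 10 genes grew much less than the library total did. Ldha had 1581, 1689, 1549, 1645 and 1627 counts in the Stim Input libraries of RiboTag mice 1 to 5, while the totals of those libraries were 1658481, 2147048, 2054235, 2564114 and 2689657 counts. Within groups, the slope of log2 count on log2 library total was 0.28 in RiboTag and 0.20 in SPEED for Ldha, where counts in proportion to depth would give 1. The slopes of Aldoa, Tpi1, Gapdh, Pkm, Gpi1 and Pgk1 were 0.30 to 0.45 in RiboTag and 0.44 to 0.68 in SPEED, and each was among the lowest 5.50% of all genes with a mean of at least 20 counts. Pfkl had 0.74 and 1.08, Hk1 had 1.25 and 1.37, and Hk2 had 1.13 and 1.40, against medians of 1.12 and 1.13 over all such genes. Genes with a mean of 1000 counts or more had median slopes of 0.77 (184 genes) and 0.79 (410 genes), while Gapdh and Pgk1 were flat at far lower counts. The cause of this flattening was not tested. It means that a level in CPM (counts scaled to the library total) of the 7 flat genes is lower in a deeper library, so library totals are given beside results they touch, and a fit with the library total as a covariate was run for every comparison.

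**Figure D1:**
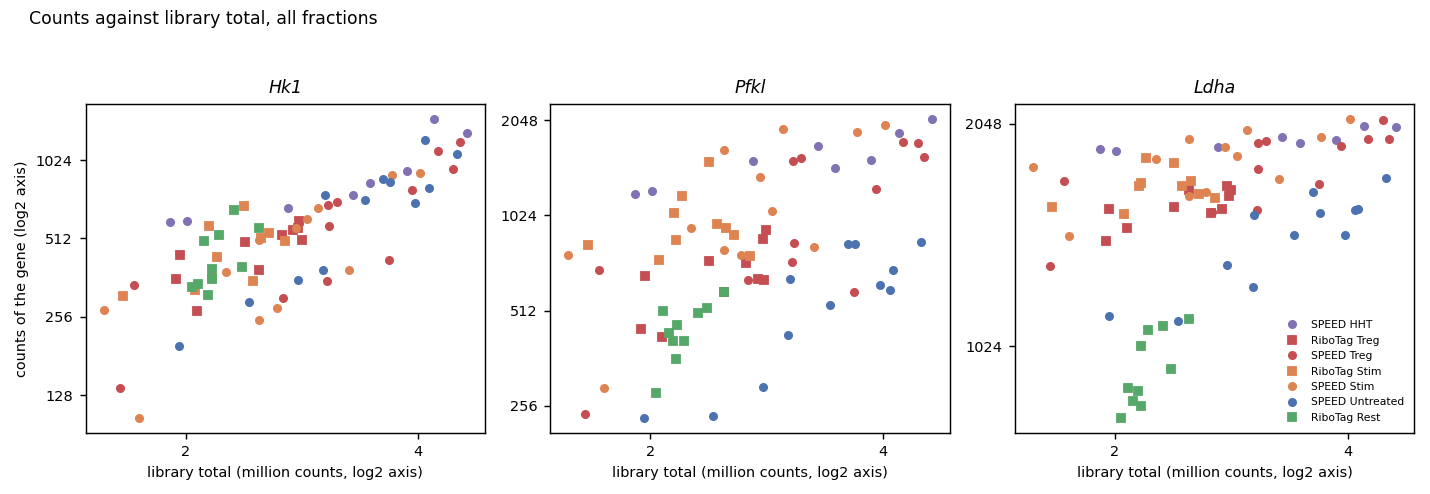
Counts of Hk1, Pfkl and Ldha (vertical, log2 axis) against the total counts of the library (horizontal, log2 axis), 1 point a library, coloured by condition, with squares for RiboTag and circles for SPEED and all fractions shown together. Hk1 counts follow the total, whereas Ldha counts stay in a narrow band at each condition.

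Stimulation with beads was followed by higher levels of most of the 10 genes, and the hexokinase pair moved most unequally. Levels are CPM after TMM scaling, which aligns libraries on the bulk of genes, and changes are log2 fold changes from edgeR's quasi-likelihood test with Benjamini-Hochberg adjustment over all genes tested, called at an adjusted p under 0.05. In RiboTag Input, 8 of the 10 genes rose in Stim over Rest and 0 fell, while 31.9% of all 10751 genes tested rose. The median log2 fold change of the 10 was 1.00 and that of all genes was -0.01. In RiboTag IP, 9 of the 10 rose and 0 fell, against 33.6% of all genes, with medians of 0.93 and 0.02. Fewer cells of a type and less RNA per cell cannot be told apart in such bulk libraries.

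Hk2, the inducible hexokinase, was nearly absent without beads. It had 35, 51, 47, 70 and 48 counts in the Stim Input libraries of mice 1 to 5, against 0, 0, 0, 6 and 0 counts in Rest Input. In IP it had 57, 75, 102, 66 and 52 counts in Stim and 0, 1, 0, 2 and 0 counts in Rest. The groups did not overlap in either fraction. The edgeR log2 fold change was 5.16 in Input (SE 0.51, adjusted p 2.06e-10) and 6.58 in IP (SE 0.55, adjusted p 4.70e-12), but with so few counts in Rest these estimates depend on the prior count. From summed counts the Hk2 rate per library total was 40.3 times higher in Stim than in Rest in Input, with an exact 95% interval from 18.3 to 111 that covers counting error only. All 6 Rest Input counts came from mouse 4, and without that mouse Rest stands at 0, which gives an at least 60.3-fold higher rate in Stim if 3 counts are allowed over the 4 Rest libraries together. In IP the rate ratio was 114, from 38.7 to 555.

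Hk1, the constitutive hexokinase, did not pass the test. It had 186, 264, 157, 206 and 183 CPM in Stim Input, against 181, 242, 147, 170 and 170 CPM in Rest Input, and the groups overlapped. The log2 fold change was 0.13 (95% interval -0.23 to 0.48, edgeR adjusted p 0.533) in Input and -0.11 (-0.46 to 0.24, adjusted p 0.590) in IP. The Hk1 libraries of mouse 2 were the highest of their group in Rest and Stim in both fractions.

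The makeup of the hexokinase counts therefore differed between the groups. Hk2 made up 8.16 to 12.6% of the summed Hk1 and Hk2 counts in Stim Input libraries, with a mean of 10.3 ± 1.86% (SD, n = 5), against 0.330 ± 0.737% (SD, n = 5) in Rest Input. These shares are of counts not divided by transcript length, so they compare groups and not the 2 enzymes. The log2 ratio of Hk2 to Hk1 was 5.69 higher in Stim than in Rest in Input (exact permutation test, two-sided, p 0.00794, adjusted p 0.0132 over 5 such tests, higher in 5 of 5 mice). In IP it was 6.41 higher, with the same exact p of 0.00794 and adjusted p of 0.0132, again in 5 of 5 mice. With Hk2 at 0 counts in most Rest libraries, the size of these differences depends on the pseudocount of 0.5, and with a pseudocount of 2 they were 4.07 and 4.90. The exact p is the smallest p that 5 against 5 libraries allow.

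Among the enzymes that prepare the sugar, Pfkl rose in both RiboTag fractions, and Gpi1 passed the test in IP. Pfkl had 501, 480, 356, 341 and 277 CPM in Stim Input, against 213, 189, 195, 171 and 144 CPM in Rest Input. The groups did not overlap, and the log2 fold change was 1.10 (SE 0.16, edgeR adjusted p 5.88e-07) in Input and 1.06 (SE 0.16, adjusted p 8.02e-07) in IP. Gpi1 had 425, 399, 309, 300 and 291 CPM in Stim Input, against 291, 305, 343, 335 and 374 CPM in Rest Input. Mice 1 and 2 were higher in Stim and mice 3 to 5 lower, and the log2 fold change was 0.06 (95% interval -0.17 to 0.30, adjusted p 0.651). In IP the Gpi1 change was 0.29 (SE 0.11, edgeR adjusted p 0.0257) with higher values in 3 of 5 mice, and it no longer passed when mouse 1 (log2 fold change 0.16, adjusted p 0.222) or mouse 2 (0.15, adjusted p 0.282) was left out. Whether the Gpi1 change differs between IP and Input was tested as an interaction and did not pass (0.23, 95% interval -0.10 to 0.56, adjusted p 0.992).

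Tpi1, the triose isomerase, had the highest log2 fold change after Hk2. It had 646, 541, 436, 400 and 362 CPM in Stim Input, against 77.7, 103, 92.0, 75.1 and 86.5 CPM in Rest Input. The lowest Stim library stood above the highest Rest library by a wide margin, and the log2 fold change was 2.45 (SE 0.14, edgeR adjusted p 2.01e-16), with 2.16 (SE 0.13, adjusted p 2.47e-15) in IP. Aldoa, the aldolase of the preceding step, had 756, 627, 534, 488 and 461 CPM in Stim Input, against 383, 390, 428, 416 and 440 CPM in Rest Input. The groups did not overlap, but the highest Rest library was close to the lowest Stim library, and the change was 0.48 (SE 0.10, adjusted p 1.64e-04) in Input and 0.37 (SE 0.10, adjusted p 0.00226) in IP.

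The energy-harvesting enzymes and Ldha rose in both fractions. Gapdh, which oxidises the triose phosphate, had 24.0 to 35.9 CPM in Stim Input, against 9.48 to 13.3 CPM in Rest Input, and Pgk1, which makes ATP in the next step, had 19.8 to 38.1 CPM in Stim Input, against 8.53 to 10.5 CPM in Rest Input. Their log2 fold changes in Input were 1.38 (SE 0.20) and 1.46 (SE 0.20), with edgeR adjusted p of 3.44e-07 and 1.75e-07. Pkm, the pyruvate kinase, had 781, 675, 552, 529 and 503 CPM in Stim Input, against 370, 357, 287, 293 and 317 CPM in Rest Input. Ldha had 956, 777, 747, 630 and 593 CPM in Stim Input, against 474, 494, 423, 404 and 420 CPM in Rest Input. Neither Pkm nor Ldha overlapped between the groups, and their log2 fold changes were 0.90 (SE 0.11, adjusted p 2.35e-08) and 0.74 (SE 0.11, adjusted p 3.77e-07). In IP the changes of Gapdh, Pgk1, Pkm and Ldha were 1.49, 1.35, 0.77 and 0.80. The same 8 genes passed in Input with the library total as a covariate, against 31.9% of all genes that rose, and the same 9 in IP, against 33.9%.

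**Figure D2:**
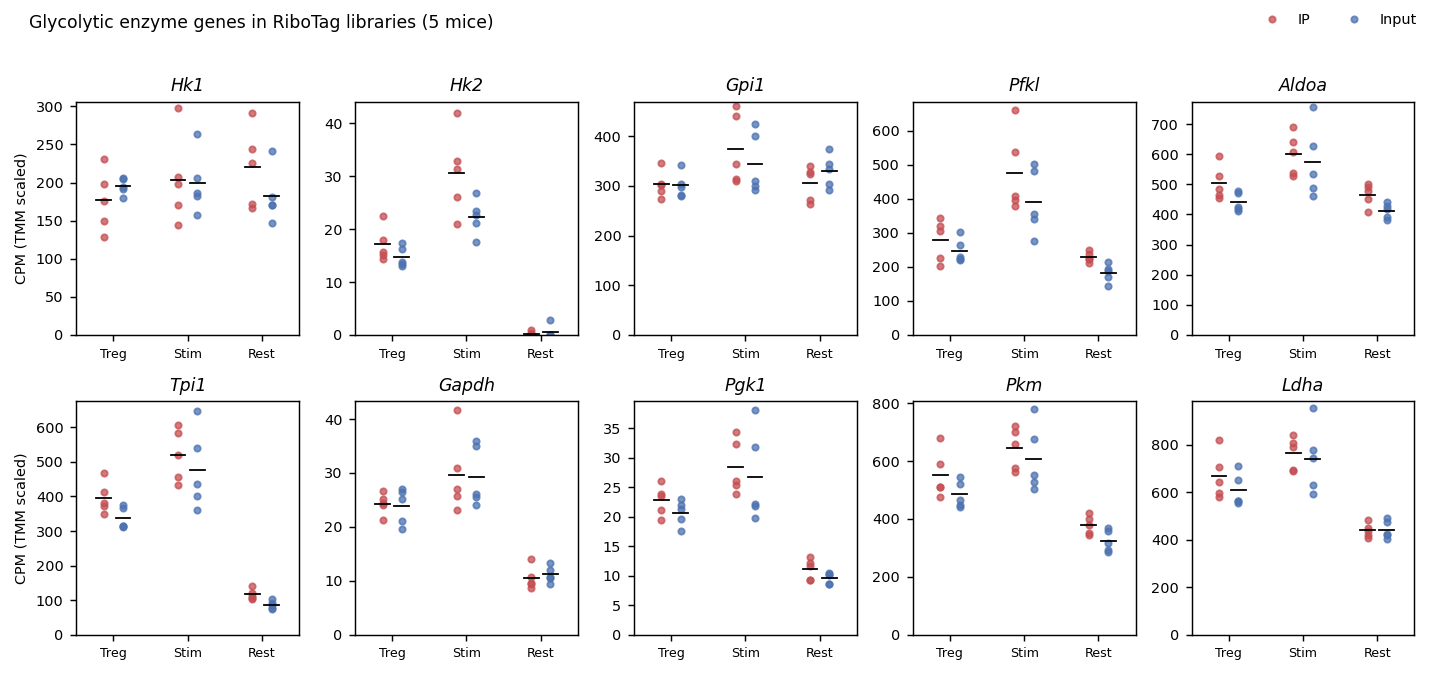
CPM (vertical, from 0) of the 10 genes in RiboTag libraries by condition (horizontal: Treg, Stim, Rest), with IP in red and Input in blue, 1 point for each of 5 mice and a bar at the mean. Hk2 stands near 0 at Rest, Tpi1 differs most among the abundant genes, and Hk1 and Gpi1 overlap between conditions.

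The SPEED assay gave the comparison again in 4 other mice, with Untreated cells in place of cells kept in IL7. In SPEED Input, 9 of the 10 genes rose in Stim over Untreated and 0 fell, against 27.9% of all 12428 genes tested, and in Pol 9 rose and 0 fell, against 28.5%. The members' median log2 fold changes were 0.89 and 0.97, and those of all genes were 0.01 and 0.00. Hk1 was again the gene that did not pass, with log2 fold changes of -0.10 (95% interval -0.37 to 0.17, edgeR adjusted p 0.537) in Input and -0.22 (-0.50 to 0.05, adjusted p 0.153) in Pol, where it was lower in Stim in 4 of 4 mice.

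Hk2 had 161, 195, 89 and 90 counts in Stim Input of mice 1 to 4, against 8, 0, 1 and 0 counts in Untreated Input. The groups did not overlap, and the rate ratio from summed counts was 79.9 with an exact 95% interval from 41.8 to 176. Mouse 1 gave 8 of the 9 Untreated counts, and without it the ratio was 492 with an interval from 87.8 to 19501, since 1 count remained. The log2 ratio of Hk2 to Hk1 was 7.08 higher in Stim than in Untreated Input (exact permutation test, two-sided, p 0.0286, adjusted p 0.0357 over 5 tests, higher in 4 of 4 mice), and 0.0286 is the smallest p that 4 against 4 libraries allow. With a pseudocount of 2 in place of 0.5 the difference was 5.79.

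Gpi1, which did not pass in RiboTag Input, had 370, 324, 401 and 346 CPM in SPEED Stim Input, against 207, 240, 235 and 217 CPM in Untreated Input. The groups did not overlap, and the log2 fold change was 0.68 (SE 0.13, edgeR adjusted p 4.84e-05). Tpi1 had 466, 393, 524 and 425 CPM in Stim Input, against 67.2, 96.9, 85.4 and 75.2 CPM in Untreated Input, a change of 2.48 (SE 0.19, adjusted p 6.96e-14). Pfkl had 488, 497, 421 and 368 CPM in Stim Input, against 155, 143, 162 and 169 CPM in Untreated Input, a change of 1.50 (SE 0.17, adjusted p 2.26e-09). None of these groups overlapped.

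In SPEED Input the rises of Ldha, Pkm, Aldoa and Tpi1 were smaller with the library total as a covariate. The Stim Input libraries had 2257220 to 3697133 counts and the Untreated Input libraries 3412403 to 4125314 counts. Depth and condition thus cannot be fully told apart here, and the covariate may take away part of the difference between conditions. Ldha had 686, 520, 828 and 644 CPM in Stim Input, against 366, 378, 437 and 383 CPM in Untreated Input. The groups did not overlap, and the edgeR log2 fold change of 0.77 (adjusted p 0.00665, SE 0.24) became 0.35 (SE 0.04, adjusted p 3.32e-09) with the library total as a covariate. Pkm had 0.50 with the covariate, against 0.81 without it, and Aldoa had 0.45 with it, against 0.76 without it. With the covariate the change of Tpi1 was 2.20 and that of Pfkl 1.47, and all 9 Input calls passed, against 28.4% of all genes that rose. Without the covariate and without mouse 1, Ldha missed the threshold at 0.74 (adjusted p 0.0573).

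Cells stimulated together with Tregs had lower levels of several of the 10 genes than cells with beads alone. The size of the fall relative to the rise with beads differed between genes. In RiboTag Input, Tpi1 averaged 337 CPM in Treg, 477 CPM in Stim and 86.8 CPM in Rest. Aldoa averaged 440, 573 and 412 CPM there, so its Treg level was close to that of Rest. In RiboTag Input, 3 of the 10 genes fell in Treg over Stim and 0 rose, against 1.77% of all genes that fell. The 10 log2 fold changes were all below 0, with a median of -0.34 beside 0.01 over all genes. They were again all below 0 with the library total as a covariate, with a median of -0.20. In RiboTag IP, 1 gene (Pfkl) fell and 0 rose, against 2.23% of all genes that fell, with medians of -0.29 and 0.00.

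Pfkl was called in both fractions. It had 223, 220, 263, 304 and 228 CPM in Treg Input, against 501, 480, 356, 341 and 277 CPM in Stim Input. The value was lower with Tregs in 5 of 5 mice although the groups overlapped, and the log2 fold change was -0.66 (SE 0.16, edgeR adjusted p 0.0116). In IP it had 227, 305, 319, 345 and 202 CPM in Treg, against 538, 659, 396, 407 and 378 CPM in Stim. These groups did not overlap, the change was -0.77 (SE 0.16, adjusted p 0.00297), and it passed without each mouse in turn, with a highest adjusted p of 0.0333. Every library was lower in Treg than in Stim for Pfkl alone of the 10 genes in IP, which held for 3.04% of all genes.

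Tpi1 and Aldoa were called in Input. Tpi1 had 366, 315, 312, 375 and 314 CPM in Treg Input, against 646, 541, 436, 400 and 362 CPM in Stim Input, a log2 fold change of -0.50 (edgeR, SE 0.12, adjusted p 0.0137). Aldoa had 470, 410, 418, 478 and 425 CPM in Treg Input, against 756, 627, 534, 488 and 461 CPM in Stim Input, a change of -0.38 (SE 0.10, adjusted p 0.0241). Both were lower with Tregs in 5 of 5 mice, and both groups overlapped. The Stim libraries of mice 1 and 2 were the highest for each, and without mouse 1 or without mouse 2 none of the 10 genes passed, beside 0.871% and 1.63% of all genes that fell (without mouse 3, 1 did, beside 0.538%). The deepest libraries also lay in the Treg group, with 1945340 to 2805743 counts in Treg Input and 1658481 to 2689657 counts in Stim Input. With the library total as a covariate 1 of the 10 genes fell, against 1.55% of all genes that fell, namely Pfkl (-0.58, adjusted p 0.0435), while Tpi1 (-0.34, adjusted p 0.0536) and Aldoa (-0.22, adjusted p 0.0566) missed the threshold. In IP that fit called 3 genes lower, Pfkl, Tpi1 (-0.36, adjusted p 0.0226) and Aldoa (-0.22, adjusted p 0.0335), against 2.68% of all genes that fell.

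With the mouse as a block, 4 genes fell in Input, since Pkm passed at -0.32 (edgeR adjusted p 0.0288), against -0.33 (adjusted p 0.0835) without it, while the share of all genes that fell was 3.21% in that fit. In IP the block added Tpi1 at -0.38 (adjusted p 0.0262), against -0.39 (adjusted p 0.0519) without it, and 4.58% of all genes fell. Gapdh, Pgk1 and Ldha did not pass in either fraction in either fit, with log2 fold changes from -0.36 to -0.20. Hk1 had changes of -0.03 in Input and -0.21 in IP, and Gpi1 had -0.19 and -0.30.

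Hk2 did not pass the test across genes but was separated in Input. It had 13.5, 13.8, 16.3, 17.4 and 13.0 CPM in Treg Input, against 21.2, 23.5, 22.7, 26.8 and 17.5 CPM in Stim Input. Every Treg library was below every Stim library, as for 3.59% of all genes, and it was the one of the 10 genes for which this held in Input. The log2 fold change was -0.59 (95% interval -1.26 to 0.07, edgeR adjusted p 0.347). The log2 ratio of Hk2 to Hk1, tested by itself, was -0.58 in Treg relative to Stim (exact permutation test, two-sided, p 0.00794, adjusted p 0.0132 over 5 tests, lower in 5 of 5 mice). This ratio test was chosen with earlier results of these data known and does not pair the mice. Its p is the smallest that 5 against 5 libraries allow. The paired sign-flip test gave p 0.0625, the smallest that 5 mice allow, so it could not pass. In IP the Hk2 change was -0.84 (95% interval -1.50 to -0.19, adjusted p 0.117), and it passed in DESeq2 (adjusted p 0.00780). The log2 ratio of Hk2 to Hk1 was not tested in IP for Treg over Stim. There it ran from -3.47 to -3.15 in Treg and from -3.29 to -1.77 in Stim, so the groups overlapped. Mouse 5 had a higher ratio with Tregs (-3.15 against -3.29) and the other mice a lower one.

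In SPEED Input none of the 10 genes was called in Treg over Stim, where 0.587% of all genes were called in either direction. Hk1 had a log2 fold change of 0.12 and the other 9 genes had changes from -0.76 (Hk2) to -0.35 (Gapdh and Gpi1), with a median of -0.44 over the 10 beside 0.02 over all genes. The median of the 10 was -0.14 with the library total as a covariate. For Gpi1, Aldoa, Tpi1, Gapdh and Pgk1 every Treg library was below every Stim library, 5 of 10 genes beside 6.65% of all genes. Tpi1 had 318, 309, 312 and 320 CPM in Treg Input, against 466, 393, 524 and 425 CPM in Stim Input, a change of -0.52 (95% interval -0.88 to -0.16, edgeR adjusted p 0.167). The Treg Input libraries had 3063543 to 4523694 counts and the Stim Input libraries 2257220 to 3697133 counts. With the library total as a covariate the Tpi1 change was -0.24, that of Ldha was -0.06 against -0.47 without it, and that of Aldoa was -0.13 against -0.44. Hk2, whose counts followed the total, had -0.90 with the covariate and -0.76 without it, and its log2 ratio to Hk1 was 0.97 lower in Treg than in Stim (exact permutation test, two-sided, p 0.0571, adjusted p 0.0571, lower in 4 of 4 mice). Hk2 in Treg Input ran from 11.4 CPM in mouse 4 to 37.3 CPM in mouse 3.

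In SPEED Pol none of the 10 genes was called in Treg over Stim either, beside 0.282% of all genes called in either direction. Hk2 had 21.2, 19.1, 19.8 and 16.9 CPM in Treg Pol, against 45.1, 41.7, 32.2 and 29.1 CPM in Stim Pol. These groups did not overlap, but the share of all genes without overlap in Pol was not counted. The log2 fold change of Hk2 was -0.94 (95% interval -1.91 to 0.03, edgeR adjusted p 0.648). Whether the Treg change in Input differs between the assays was tested in 1 fit of both, and none of the 10 genes passed, beside 0.127% of all genes. Differences between the RiboTag and SPEED changes ran from -0.23 (Pfkl) to 0.19 (Ldha), and the 95% interval of the Pfkl difference was -0.65 to 0.18.

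**Figure D3:**
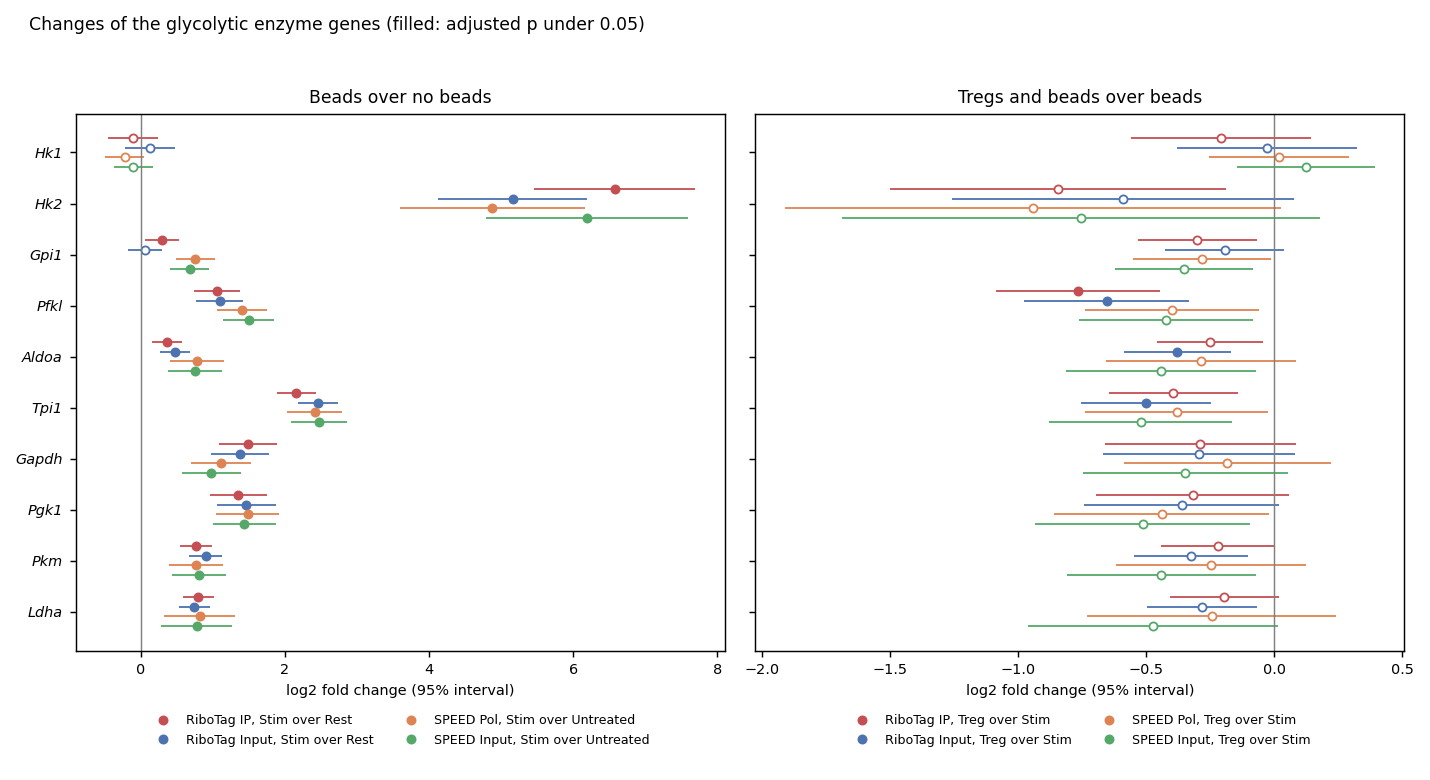
Log2 fold changes (horizontal) of the 10 genes (vertical) with 95% intervals, for Stim over Rest or Untreated on the left and Treg over Stim on the right, by assay and fraction, on separate scales. Filled points passed at an adjusted p under 0.05; on the right these are Pfkl in both RiboTag fractions and Aldoa and Tpi1 in RiboTag Input.

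The precipitated share of each mRNA was compared next. IP over Input asks whether a transcript is more abundant among RNA bound to tagged ribosomes than in whole RNA of the same culture. None of the 10 genes was called in Treg, Stim or Rest, beside 1.85%, 0.977% and 6.89% of all genes called in either direction. At Rest the log2 IP over Input of Tpi1 was 0.43, 0.45, 0.17, 0.69 and 0.35 in mice 1 to 5, and that of Pfkl was 0.15, 0.24, 0.35, 0.39 and 0.55. Every mouse was above 0 for both genes. The fitted values were 0.42 (SE 0.14, edgeR adjusted p 0.0537) for Tpi1 and 0.33 (SE 0.16, adjusted p 0.232) for Pfkl. With the culture as a block, which sets each IP against its own Input, 5 genes passed at Rest, against 9.02% of all genes higher in IP in that fit, namely Tpi1 (adjusted p 0.00122), Pfkl (0.00672), Pkm (0.0282), Aldoa (0.0425) and Hk1 (0.0496). The mouse block gave an adjusted p of 0.0324 for Tpi1. The largest of these 5 differences was that of Tpi1, 0.43 in that fit. In Stim the culture block called Pfkl (0.29, adjusted p 0.0221), beside 4.34% of all genes higher in IP, and in Treg Tpi1 (0.23, adjusted p 0.0275) and Aldoa (0.19, adjusted p 0.0341), beside 5.91%.

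Changes of IP over Input between conditions were not called for any of the 10 genes. Between Stim and Rest 0.0279% of all genes were called, and between Treg and Stim 0% were, with 125 genes at an unadjusted p under 0.05 and 0 calls in DESeq2 among the 10. Chance alone would give about 538 genes at that unadjusted p. The main fit does not pair IP with the Input of its culture, and its 0 calls do not show that nothing changed. In Treg over Stim the estimates ran from -0.25 (Hk2) to 0.13 (Aldoa), and the 95% interval of Pfkl, the gene that fell in both fractions, was -0.56 to 0.34. Hk2 had too few counts at Rest for its ratio to be read, with 0 to 2 counts in Rest IP and 0 to 6 in Rest Input.

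SPEED measured ribosome loading by another route, as the level in polysomes, where several ribosomes sit on 1 mRNA, over that in the lighter fractions. In Stim 8 of the 10 genes were higher in Pol than in SubPol, against 23.6% of all genes that were higher; in Treg 6 were, against 22.6%, and in Untreated 5 were, against 21.9%. None of the 10 was called lower in Pol in these fits, but Gpi1 was called lower in Untreated without TMM scaling (-0.32, adjusted p 0.0167) and in a fit of only the groups compared (-0.25, adjusted p 0.0346), where 21.7% and 18.3% of all genes were lower. The members' median log2 Pol over SubPol was 0.54 in Treg, 0.72 in Stim and 0.53 in Untreated, beside -0.02, -0.02 and 0.04 over all genes.

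The genes differed from each other in these ratios. Hk1 had a log2 Pol over SubPol of 1.27, 1.20, 1.04 and 1.74 in Stim libraries of mice 1 to 4 and of 0.96, 1.05, 1.07 and 1.40 in Untreated libraries. Pfkl had 1.32, 1.23, 1.09 and 1.78 in Stim and 0.79, 1.26, 1.02 and 0.92 in Untreated. Both genes were more than 1 log2 unit higher in Pol in every Stim library, and the groups overlapped. The fitted values in Stim were 1.27 (SE 0.14, edgeR adjusted p 1.47e-09) for Hk1 and 1.33 (SE 0.17, adjusted p 3.75e-08) for Pfkl. Hk2, with 11 to 63 counts in Stim SubPol and 40 to 131 in Stim Pol, had 1.47 (SE 0.49, adjusted p 0.0135). Pgk1 (0.93), Pkm (0.85), Aldoa (0.59), Tpi1 (0.45) and Gpi1 (0.37) also passed. Gapdh (0.46, adjusted p 0.0579) and Ldha (0.43, adjusted p 0.148) did not.

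The numbers of genes called moved with the fit and with the mice included, and the cause was not tested. Pol libraries of Stim ran from 1566501 to 4025127 counts and SubPol libraries from 1741502 to 3256894 counts, and mouse 4 had the shallowest library in both. With the library total as a covariate all 10 genes were higher in Pol in Stim, against 24.7% of all genes that were higher in that fit. Without mouse 2 the number was 4, against 21.3% of all genes, and without mouse 4 it was 5, against 20.6%. In Treg 3 genes were called without mouse 2 or mouse 4, against 19.9% and 19.6% of all genes, and 9 with the covariate, against 24.0%. The median of the 10 in Untreated was 0.83 with the covariate, against 0.53 without it. Without TMM scaling 3 genes passed as higher in Treg, against 17.2% of all genes that were higher and 26.9% that were lower. In Stim 6 did, against 17.9% and 27.7%, and the medians of all genes were then -0.18 in Treg and -0.19 in Stim. Hk1, Pfkl and Pkm passed without each mouse in turn in Treg, Stim and Untreated.

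Changes of Pol over SubPol between Stim and Untreated were not called for any of the 10 genes, beside 2.60% of all genes called in either direction. Gpi1 had 0.40, 0.47, 0.02 and 0.54 in Stim, against -0.06, -0.23, -0.32 and -0.24 in Untreated. These groups did not overlap, but the share of all genes without overlap was not counted. The Gpi1 change was 0.58 (SE 0.19, edgeR adjusted p 0.0817), with 0.57 (adjusted p 0.0387) in the fit with the mouse as a block, where 2.70% of all genes were higher. The fit with the library total as a covariate called Gpi1 higher (0.36, adjusted p 0.0102) and Tpi1 lower (-0.51, adjusted p 0.0277), beside 2.40% and 1.95% of all genes. DESeq2 and the fit with the culture as a block each called Gpi1 and Hk2 higher, beside 2.98% and 3.23% of all genes. Hk2 had a change of 2.68 (SE 0.92, adjusted p 0.101), but its Untreated libraries held 0 to 13 counts in Pol and 2 to 25 in SubPol, and 25 of the 31 SubPol counts were in mouse 1. Between Treg and Stim 0% of all genes were called, with 329 at an unadjusted p under 0.05, where chance alone would give about 621. These 0 calls therefore do not show that nothing changed. The changes of the 10 genes ran from -0.31 (Hk2 and Pgk1) to 0.01 (Pfkl and Tpi1).

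**Figure D4:**
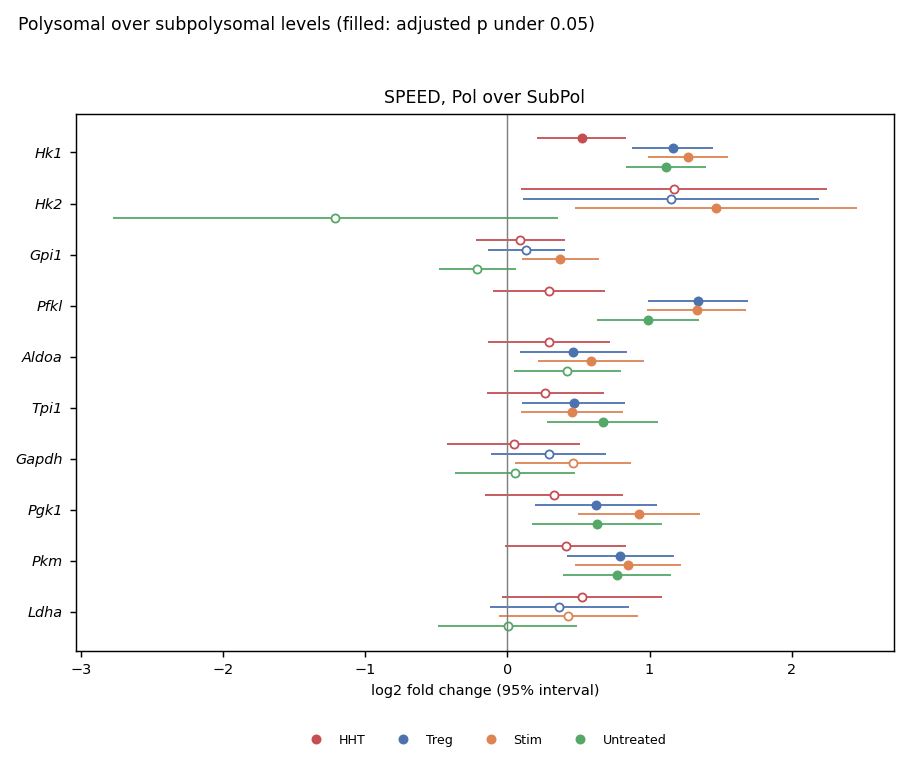
Log2 Pol over SubPol (horizontal) of the 10 genes (vertical) with 95% intervals in HHT, Treg, Stim and Untreated cells of SPEED. Filled points passed at an adjusted p under 0.05; Hk1 and Pfkl stand near 1 or above in Treg, Stim and Untreated, and in HHT they stand at 0.52 and 0.29.

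After HHT the difference between the 2 fractions was smaller for Hk1 and Pfkl. In HHT 1 of the 10 genes (Hk1) was higher in Pol than in SubPol, against 4.51% of all genes that were higher. In HHT over Stim 2 of the 10 genes had a lower Pol over SubPol and 0 a higher one, against 12.7% of all genes with a lower one. With only 10 genes this count is near the share of all genes, so in this fit it does not set them apart. Hk1 had a log2 Pol over SubPol of 0.34, 0.58 and 0.64 in HHT libraries of mice 1 to 3, against 1.27, 1.20, 1.04 and 1.74 in Stim libraries. Pfkl had 0.19, 0.42 and 0.27 in HHT, against 1.32, 1.23, 1.09 and 1.78 in Stim. Neither gene's groups overlapped, and the changes were -0.75 (SE 0.21, edgeR adjusted p 0.00710) and -1.04 (SE 0.26, adjusted p 0.00274). The groups of Gapdh (-0.19 to 0.18 in HHT, 0.20 to 0.61 in Stim) and Pgk1 (0.14 to 0.42 in HHT, 0.57 to 1.15 in Stim) did not overlap either. Gapdh and Pgk1 were not called in this fit, and the share of all genes without overlap was not counted.

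Both genes stood higher in SubPol after HHT. Hk1 had 250, 222 and 227 CPM in HHT SubPol, against 99.0, 93.3, 109 and 58.6 CPM in Stim SubPol, and Pfkl had 565, 502 and 374 CPM in HHT SubPol, against 274, 299, 227 and 162 CPM in Stim SubPol. Hk2 had 43.0, 41.1 and 29.5 CPM in HHT SubPol, against 16.7, 12.0, 17.6 and 6.14 CPM in Stim SubPol. None of these 3 pairs overlapped. Pkm did not overlap either, with 448 to 624 CPM in HHT SubPol, against 354 to 441 CPM in Stim SubPol. These single-fraction differences were not tested, and the share of all genes without overlap was not counted. CPM are relative to the total of each library, so they do not show how much RNA moved between fractions. Hk1 was higher in HHT Pol too, with 316, 332 and 353 CPM, against 239, 215, 224 and 197 CPM in Stim Pol, whereas the Pfkl Pol groups overlapped. Hk2 was also higher in HHT Pol (93.6, 89.2 and 73.5 CPM) than in Stim Pol (45.1, 41.7, 32.2 and 29.1 CPM), and its ratio changed by -0.29 (95% interval -1.74 to 1.15, edgeR adjusted p 0.825).

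Without mouse 1 the number of genes called was 1 (Pfkl), against 7.38% of all genes with a lower ratio. The HHT Pol libraries of mice 1 and 2 had 2007852 and 1909477 counts and that of mouse 3 had 4195677 counts, while the HHT SubPol libraries had 2714404 to 3862656 counts. With the library total as a covariate 9 of the 10 genes had a lower ratio in HHT than in Stim, against 15.3% of all genes, and the exception was Hk2. In that fit Ldha stood at -0.32 (adjusted p 9.84e-05), against 0.10 (adjusted p 0.897) without the covariate. In Input none of the 10 genes was called in HHT over Stim, beside 0.105% of all genes called in either direction, and the changes ran from -0.45 (Ldha) to 0.41 (Hk2) with only 2 HHT libraries.

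**Figure D5:**
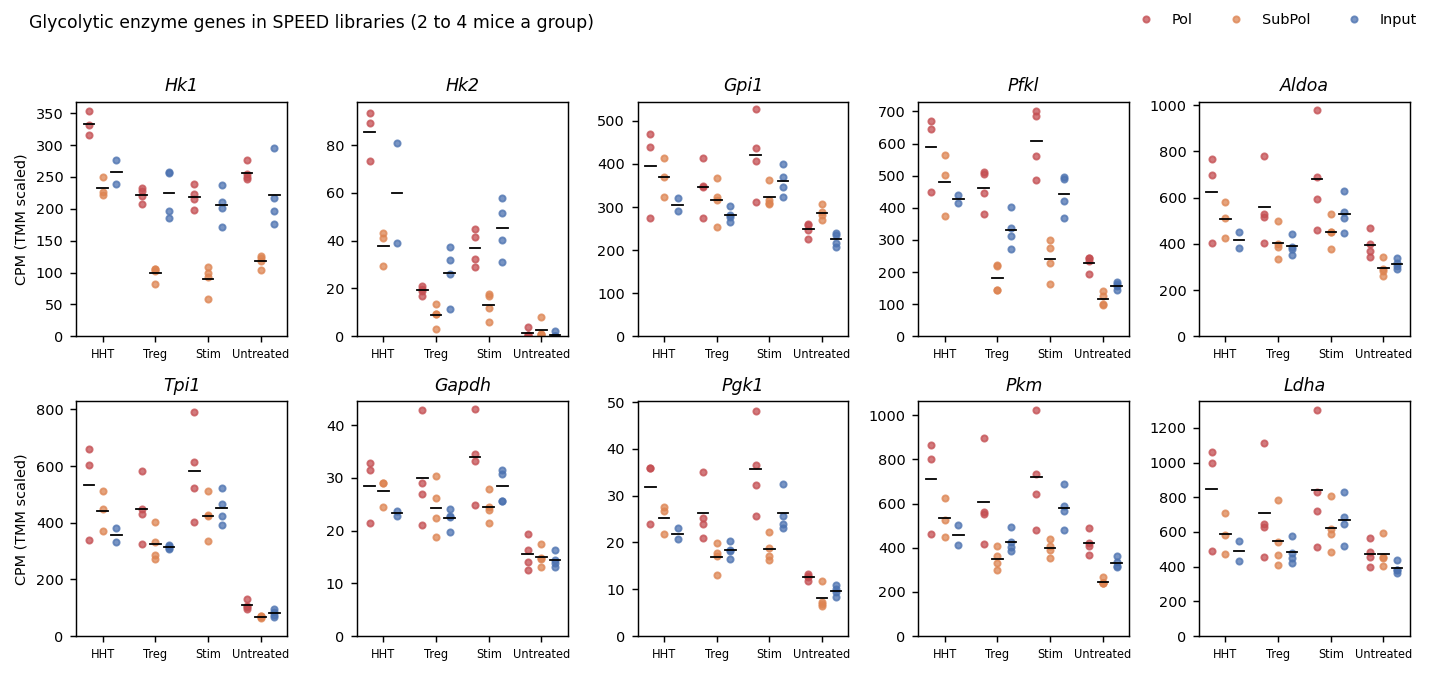
CPM (vertical, from 0) of the 10 genes in SPEED libraries by condition (horizontal: HHT, Treg, Stim, Untreated), with Pol in red, SubPol in orange and Input in blue, 1 point a library and a bar at the mean. For Hk1 and Pfkl the HHT SubPol points lie above the Stim SubPol points, and mouse 4 gives the highest Stim Pol point of Ldha at 1306 CPM.

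The 10 genes were also taken as a set. They summed to 0.259 to 0.298% of all counts in RiboTag Treg Input libraries, 0.279 to 0.433% in Stim Input and 0.184 to 0.208% in Rest Input. In SPEED Input the sums were 0.273 and 0.297% in HHT, 0.247 to 0.266% in Treg, 0.307 to 0.370% in Stim and 0.160 to 0.183% in Untreated. These shares are dominated by the flat genes and so fall with depth.

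Across the 30 RiboTag libraries, which share 3 conditions and differ in depth, the log2 CPM of Pkm followed the mean scaled profile of the other 9 genes most closely, with a Pearson r of 0.96. Ldha, Pgk1, Tpi1, Gapdh, Pfkl, Aldoa and Hk2 had r from 0.81 to 0.94. Gpi1 had 0.45 and Hk1 had 0.11, so these 2 genes varied apart from the rest. Among 9219 further genes whose log2 CPM averaged 3 or more, the 2 most like the mean profile of all 10 were ENSMUSG00000025161 (r = 0.93) and ENSMUSG00000020358 (r = 0.93), which the tables do not name. The first averaged 45.4 ± 10.4 CPM in Treg Input, 99.0 ± 52.8 CPM in Stim Input and 2.40 ± 1.41 CPM in Rest Input (SD, n = 5 each).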

How the data were processed

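Gene counts were deposited by the authors as raw counts for 53465 gene identifiers, and per the submitters' processing notes the tools included HTSeq 0.4.1, Picard 1.134, SAMtools 1.2 and FastQC 0.11.3, with the build GRCm38. Per the labels' protocols, cDNA came from the SMART-Seq v4 kit and was tagmented with NexteraXT, which do not mark strand, so a gene and an antisense neighbour cannot be told apart. The sources used here name no aligner and do not say whether duplicate reads were removed. 16 RiboTag columns matched no sample and were not used. Of 2 HHT Input libraries with the same title, the later was left out, which left 44 SPEED libraries. Both titles carry the number 1 and no HHT Input title carries the number 2, so the one left out may be from mouse 2. Counts were tested with edgeR 4.0.16 in R 4.3.3 (quasi-likelihood, robust, TMM, filterByExpr with a minimum count of 10 and a minimum total of 15), in 1 fit per assay with a mean per group. The test was also run on simulated counts, but only with the groups of some comparisons. Those counts were drawn independently and in proportion to the library total, so they covered neither the pairing by mouse nor the flat counts. CPM are scaled to the TMM-adjusted library total, and log2 ratios of fractions per mouse are on log2 CPM with a prior count of 2. The Hk2 to Hk1 ratio used a pseudocount of 0.5 and an exact permutation test, adjusted over 5 tests.

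Alternatives were no TMM, no filter, DESeq2 1.42.0, only the groups compared, each mouse left out, the mouse or the culture as a block and, chosen after seeing the data, the library total as a covariate. The number in each title was taken as the mouse of the library, and libraries of an assay with the same number were treated as paired. The counts of mice rest on this reading. Deviations of such libraries from their group means had a mean correlation of 0.149 in RiboTag and 0.038 in SPEED, against -0.037 and -0.012 between mice. No pair of libraries of a group agreed within sampling noise. Cultures of different mice are separate, and p-values measure only the spread between these samples. The identifiers of the 10 genes were paired with symbols by the list that chose them, not by the tables. The 10 genes, all lists and the tests of the Hk2 to Hk1 ratio were chosen with earlier results of these data known. The rule named all 10 genes, up to 2 changed genes of each pathway or marker list, and the 5 genes most like the mean profile over RiboTag libraries, of which 2 are printed. Those lists are by symbol, and no table used here pairs the identifiers with symbols, so they were not tested. Intervals of rate ratios are exact and cover counting error only.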

Additional observations from a re-analysis of the deposited data

Results flagged for a closer look

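Among 150 groups of 4 or 5 libraries, 7 had a library far from the others by Dixon's test at the 95% level, and chance alone would give about 7.5. For Hk2, RiboTag Rest Input of mouse 4 stood at 2.85 CPM, with the others at 0. SPEED Untreated SubPol of mouse 1 stood at 8.15 CPM for Hk2, with the others at 0.692 to 1.06, and Untreated Input of the same mouse at 2.02 CPM, with the others at 0 to 0.302. Pgk1 had 11.8 CPM in Untreated SubPol of mouse 2, with the others at 6.36 to 7.26, and Pkm had 265 CPM in Untreated SubPol of mouse 4, with the others at 238 to 242. Pfkl had 195 CPM in Untreated Pol of mouse 3, with the others at 236 to 243. Hk1 had 81.3 CPM in Treg SubPol of mouse 4, with the others at 103 to 105.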

How the results depend on the processing

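Values here are counts of the 10 genes called, and the cause of each move was not tested. With the library total as a covariate, Treg over Stim called 1 in RiboTag Input (3 without) and 3 in IP (1 without), IP over Input at Rest 3 (0), Pol over SubPol in Stim over Untreated 2 (0), 1 higher and 1 lower, and in HHT over Stim 9 (2), where Ldha turned from 0.10 to -0.32. In RiboTag IP, Treg over Stim, DESeq2 and the fit of only the groups compared called 3 each. IP over Input at Rest called 1 without TMM, without the filter and in DESeq2, and with the culture as a block it called 5 at Rest, 1 in Stim and 2 in Treg (0 each without). SPEED Input, Treg over Stim, called 1 (Tpi1) with only the groups compared. Pol over SubPol called 3 in Treg without TMM (6 with it). In HHT it called 0 without TMM, 0 without the filter, and 2 each with the culture block and with only the groups compared (1 otherwise). Stim over Untreated called 2 each in DESeq2 and with the culture block. With the mouse as a replicate block, IP Treg over Stim called 2, IP over Input at Rest 1, and Stim over Untreated in Pol over SubPol 1, and the block changed no other count by over 1.5 times. The paired sign-flip test of the log2 Hk2 to Hk1 ratio, with differences of 5.69, 6.41, -0.58 and 7.08, gave an exact p of 0.0625 with 5 mice and 0.125 with 4, the smallest it allows, so it could not pass. Leaving out 1 mouse gave 0 to 3 in RiboTag Input Treg over Stim, 0 to 1 in IP over Input at Rest, 4 to 9 in Pol over SubPol in Stim, 3 to 6 in Treg and 0 to 1 in HHT, 0 to 1 in Stim over Untreated and 1 to 2 in HHT over Stim, and a difference of 6.42 to 7.92 in log2 Hk2 over Hk1, SPEED Input, Stim over Untreated. Of the comparison results under alternatives 234 stayed within 1.5 times or on the same side, 37 moved and 8 weakened. Hk2 without beads is limited by counts of 0 to 25, and 7 of the 10 genes by counts that grew less than the library total.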
